A study of Mus musculus with 6 samples.

Results

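The genes described here encode the nuclear subunits of oxidative phosphorylation, the respiratory chain complexes I to IV and the ATP synthase (complex V). They were chosen by name: protein-coding rows of the deposited annotation whose symbol begins with Nduf and a subunit letter and number, Sdha to Sdhd, Uqcr, Cox4 to Cox8, or Atp5. This gave 82 of 15058 protein-coding genes with reads, of which 38 belong by name to complex I, 4 to complex II, 8 to complex III, 15 to complex IV and 17 to complex V. A mitochondrial or respiratory chain location was given by the deposited annotation for 79 of the 82. Ndufa4 and Ndufa4l2 are counted with complex I by name, although Ndufa4 is now regarded as a complex IV subunit, and Cox5b-ps is included because its row is annotated as protein-coding.

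Oxidative phosphorylation takes electrons from NADH at complex I and from succinate at complex II, passes them by coenzyme Q, complex III and cytochrome c to oxygen at complex IV, and uses the proton gradient built on the way to make ATP at complex V. Complex II is made wholly by nuclear genes and is also an enzyme of the citric acid cycle, whereas the other complexes combine nuclear subunits with a few made from mitochondrial DNA. Microglia, the resident macrophages of the brain, use this pathway at rest and are known to shift toward glycolysis when activated by inflammatory stimuli.

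RNA-seq was done on BV2 cells, an immortalised mouse microglial line, in 3 libraries labelled as overexpressing TDP43-NLS and 3 labelled as overexpressing GFP. TDP-43 binds RNA and normally resides in the nucleus, and the design text describes the construct as TDP-43 with a mutated nuclear localisation signal. The labels give no time after expression, no construct dose and no statement that replicates were separate cultures, so the p-values measure only the spread between these libraries. Libraries held 15062131 to 18005592 reads in genes, and the common biological coefficient of variation was 4.62%. Of 16 microglial markers 14 averaged at least 1 CPM (reads scaled to a common library size, with TMM factors), with a summed level of 2391 to 2444 CPM in TDP43-NLS and 2636 to 2712 CPM in GFP libraries. Summed neuronal markers were at 1.21 to 1.29 CPM in TDP43-NLS and 0.237 to 0.570 CPM in GFP libraries, with 4 of 6 at 0 in every library. Astrocyte markers (1 of 6 at 0) summed to 0.877 to 0.955 CPM in TDP43-NLS and 0.533 to 1.35 CPM in GFP libraries, and fibroblast markers (1 of 4 at 0) to 0 to 0.135 CPM in TDP43-NLS and 0 to 0.118 CPM in GFP libraries. Oligodendrocyte markers (2 of 6 at 0) summed to 3.48 to 5.33 CPM in TDP43-NLS and 3.14 to 5.33 CPM in GFP libraries. Endothelial markers, nearly all of it Flt1, summed to 184 to 189 CPM in TDP43-NLS and 129 to 142 CPM in GFP libraries. P2ry12, a marker of resting microglia in the brain, averaged 0.261 CPM in TDP43-NLS and 1.27 CPM in GFP libraries, and Tmem119 3.79 CPM in TDP43-NLS and 2.196 CPM in GFP libraries. The tables used here hold no row for a construct. The mouse Tardbp row had 377 ± 9.62 CPM in TDP43-NLS and 451 ± 23.98 CPM in GFP libraries (SD, n = 3 each), or -0.26 on the log2 scale (edgeR adjusted p = 2.69e-04). Overexpression was therefore not seen in that row and was not measured otherwise, and TDP43-NLS and GFP are used as the names of the labels.

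GFP replicate 2 stood apart from the other libraries in these genes. It was the lowest of the 3 GFP libraries in 76 of the 80 members with enough reads to test, and the lowest of all 6 libraries in 60. Relative to the mean of the other GFP libraries, its median log2 difference over the members was -0.34, and it was -0.45 in members under 1000 bases and -0.27 in longer ones. Over all tested genes the same medians were -0.16 under 1000 bases and 0.02 in longer genes. The deviation of GFP replicate 2 from the other GFP libraries was smaller in longer members (Spearman's rho 0.52 across 80 genes, which are not independent replicates). Pairwise chi-square per degree of freedom was 7.31 and 7.35 for the GFP pairs that include it. It was 1.20 for GFP replicates 1 and 3 and 2.42, 2.75 and 1.88 for the TDP43-NLS pairs. Results are therefore given with and without this library, and the part that its state plays in them was not tested beyond that. The fit without GFP replicate 2 has only GFP replicates 1 and 3, the most alike pair within a group. Its p-values and counts of calls may therefore overstate the differences.

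**Figure D1:**
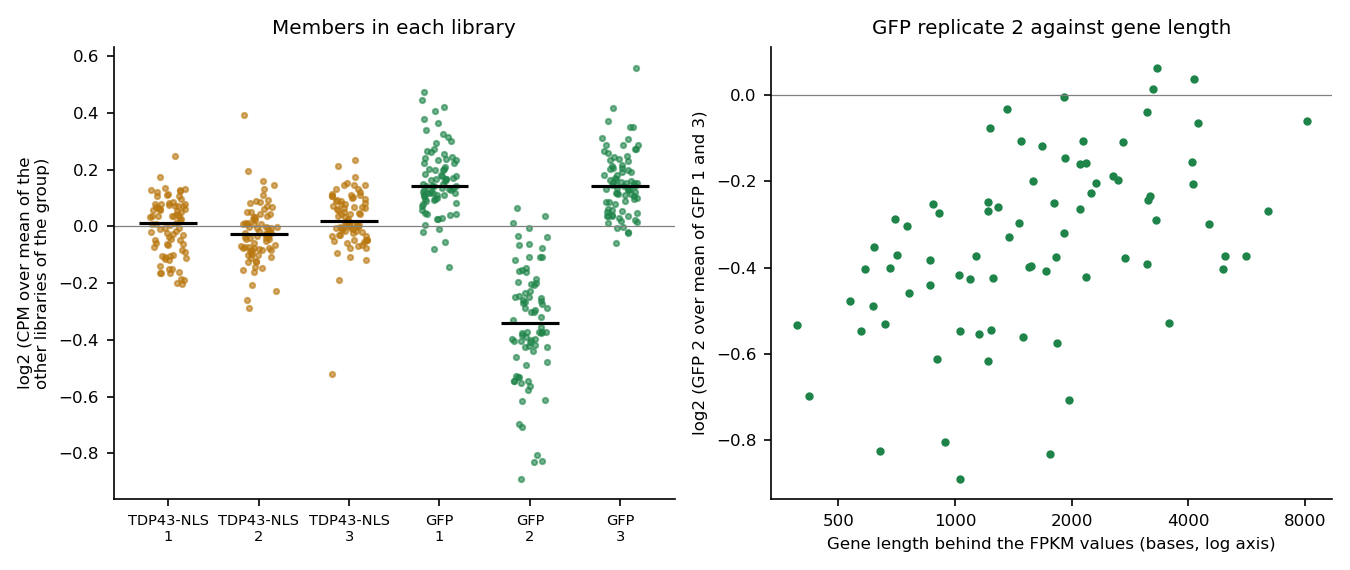
Left, log2 of each member's CPM in a library over the mean of the other libraries of its group, for 80 tested members in 6 libraries (points, members; lines, medians). Right, the same value for GFP replicate 2 against gene length in bases on a log axis. GFP replicate 2 has a median of -0.34, and the other libraries lie between -0.03 and 0.14.

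With all 6 libraries the subunit genes divided between rises and falls in TDP43-NLS cells, and most were not called. The test called 12 of the 80 members higher and 16 lower and left 52 uncalled (edgeR's quasi-likelihood test, adjusted p below 0.05 over all 13199 tested genes). This is 15% higher and 20% lower, less than among all tested genes, of which 29.3% rose and 28.3% fell. The members were shorter, with a median of 1578 bases against 4016 over all tested genes. Under 1000 bases 20% of 20 members rose and 10% fell, against 16.7% and 13.4% of all tested genes of that length. Among longer genes 13.3% of 60 members rose and 23.3% fell, against 30.5% and 29.7%. In such bulk libraries a change in the mix of cells and a change of RNA per cell cannot be told apart. The median log2 fold change of TDP43-NLS over GFP was -0.01 in the members and 0.00 over all tested genes. An absolute log2 fold change above 0.5 was seen in 5 of 80 members, or 6.25%, and in 26.4% of all tested genes. The TDP43-NLS libraries lay wholly above the GFP libraries in 15 members and wholly below in 13, where 32% and 31.2% of all tested genes did so. Cox4i2 and Ndufa4l2, isoforms linked to low oxygen in other tissues, had too few reads to test. Cox4i2 had 1, 1 and 2 reads with TDP43-NLS, against 2, 1 and 1 reads with GFP, and Ndufa4l2 had 0, 1 and 3 reads with TDP43-NLS, against 0, 0 and 0 reads with GFP.

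Leaving out GFP replicate 2 left the 12 rises in place and moved the falls to 37 of 80, with a median log2 fold change of -0.09 in the members and 0.01 over all genes. Without that library 31.3% of all 13450 tested genes rose and 30.1% fell, so that 46.3% of the members fell against 30.1% of all genes. The same 12 genes rose, all 16 genes that fell with 6 libraries fell again, and 21 more were added. These 21 were 13 of complex I, 2 each of complexes III and IV and 4 of complex V, so complex II gained no call. No called member was called in the opposite direction in any alternative tried.

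**Figure D2:**
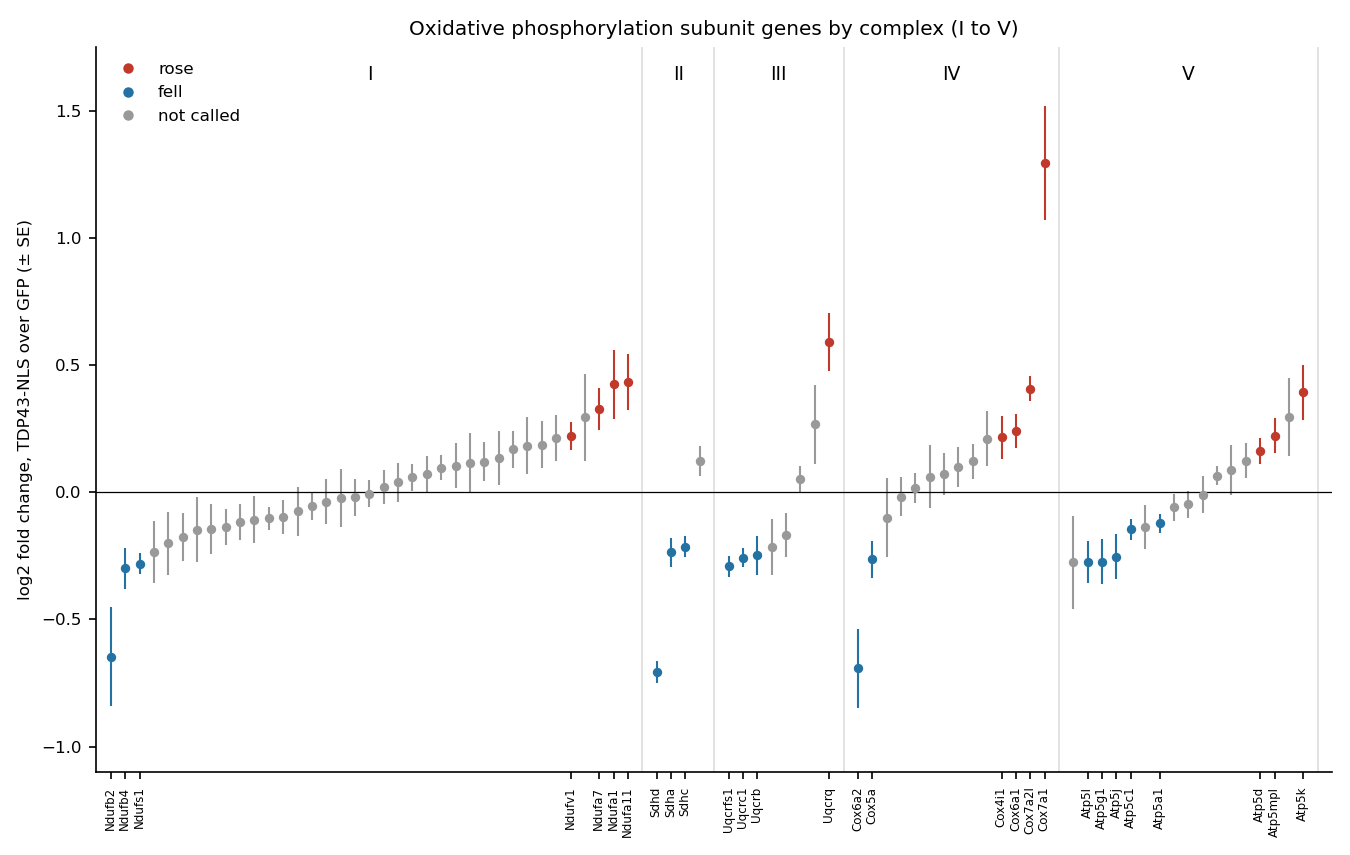
Log2 fold change of TDP43-NLS over GFP with its standard error for the 80 tested members, ordered within complexes I to V (red, rose; blue, fell; grey, not called; called members are named; n = 3 libraries each). Values run from -0.71 for Sdhd to 1.29 for Cox7a1, and 3 of 4 complex II genes lie below 0.

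**Figure D3:**
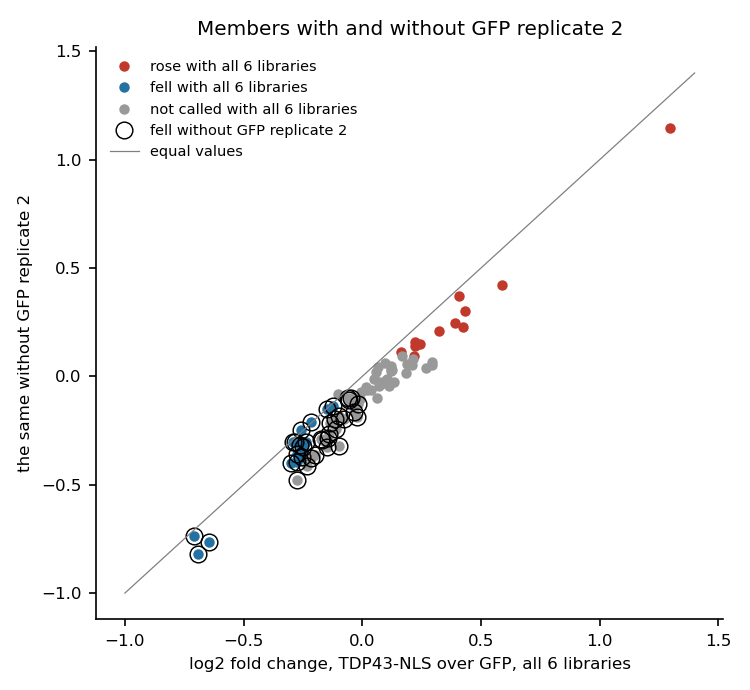
Log2 fold change of each tested member with all 6 libraries (horizontal) against that without GFP replicate 2 (vertical), with members that fell without it circled. Points lie mostly below the line of equal values, and the falls number 37 without this library and 16 with it.

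Complex II, succinate dehydrogenase, had the largest share of falling genes: 3 of its 4 members fell, Sdhd, Sdhc and Sdha, with and without GFP replicate 2, where 28.3% and 30.1% of all tested genes fell. Sdhd (ENSMUSG00000000171, chromosome 9, 50507657 to 50515112, minus strand, coordinates in GRCm39), one of the membrane anchor subunits that bind heme and coenzyme Q, had 216, 199 and 207 CPM in the TDP43-NLS libraries, against 342, 326 and 346 CPM in the GFP libraries. Each TDP43-NLS library was lower than each GFP library, and the log2 fold change was -0.71 ± 0.04 (standard error, edgeR adjusted p = 1.85e-08). Without GFP replicate 2 its log2 fold change was -0.73. With all 6 libraries this was the greatest fall among the members by estimate, close to those of the low-count genes Cox6a2 (-0.69) and Ndufb2 (-0.65), which were at -0.82 and -0.76 without that library.

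Sdhc (ENSMUSG00000058076, chromosome 1, 170954734 to 170978172, minus strand), the other membrane anchor, had 169, 166 and 164 CPM in the TDP43-NLS libraries, against 197, 194 and 188 CPM in the GFP libraries. Its groups did not overlap either, with a log2 fold change of -0.21 (standard error 0.04, edgeR adjusted p = 5.08e-04). Sdha (ENSMUSG00000021577, chromosome 13, 74470373 to 74498399, minus strand), the flavoprotein that oxidises succinate, had 378, 416 and 404 CPM in the TDP43-NLS libraries, against 495, 427 and 489.7 CPM in the GFP libraries. All 3 TDP43-NLS values were below the lowest GFP value, that of replicate 2, and the log2 fold change was -0.24 (standard error 0.06, edgeR adjusted p = 0.00318). Sdhb, the iron-sulfur subunit, was the exception with 133, 135 and 142 CPM in the TDP43-NLS libraries, against 131, 113 and 133 CPM in the GFP libraries. These groups overlapped, and its log2 fold change of 0.12 ± 0.06 (standard error) did not pass the test (edgeR adjusted p = 0.0984). On the FPKM scale, which divides by gene length, Sdhd averaged 166 FPKM in TDP43-NLS libraries and 278 FPKM in GFP libraries, while Sdhb averaged 60.1 FPKM in TDP43-NLS libraries and 56.7 FPKM in GFP libraries. Sdhd thus had a higher level per length than Sdhb in both groups.

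The promoter windows of the complex II genes that moved and of the one that did not are shown because 3 of these 4 genes fell together. They are from RefSeq on GRCm38.p6, a different build from that of the gene coordinates above, run 5′ to 3′ on the gene's strand, and cover 250 bases before to 50 after the start. Capitals mark the letters GCGCANGCG of the NRF1 motif and TCAAGGTCA of the estrogen-related receptor motif (ERRA) on either strand; AAGATGGCG of YY1 was also searched. Sdhd is at chr9:50603800-50604099, minus strand, Sdha at chr13:74350191-74350490, minus strand, and Sdhb at chr4:140961021-140961320, plus strand. Sdhc has no entry.
Sdhd: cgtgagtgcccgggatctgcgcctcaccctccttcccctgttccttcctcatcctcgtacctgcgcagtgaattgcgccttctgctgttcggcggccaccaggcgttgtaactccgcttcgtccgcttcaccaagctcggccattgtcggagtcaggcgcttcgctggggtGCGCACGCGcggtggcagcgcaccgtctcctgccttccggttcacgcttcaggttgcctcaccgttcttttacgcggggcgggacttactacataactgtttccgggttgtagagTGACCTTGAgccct
Sdha: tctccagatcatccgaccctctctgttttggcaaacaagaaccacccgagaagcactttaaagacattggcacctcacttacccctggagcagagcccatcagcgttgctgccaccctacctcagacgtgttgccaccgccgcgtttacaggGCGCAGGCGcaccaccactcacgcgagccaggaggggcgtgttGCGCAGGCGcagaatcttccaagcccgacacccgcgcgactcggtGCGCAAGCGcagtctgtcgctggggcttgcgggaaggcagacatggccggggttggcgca
Sdhb: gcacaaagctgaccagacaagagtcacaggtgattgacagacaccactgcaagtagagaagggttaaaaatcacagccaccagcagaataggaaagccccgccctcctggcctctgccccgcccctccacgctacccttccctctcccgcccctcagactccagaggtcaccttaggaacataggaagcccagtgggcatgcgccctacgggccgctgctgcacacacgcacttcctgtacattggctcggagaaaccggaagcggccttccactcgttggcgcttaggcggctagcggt

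The Sdhd window holds 1 match to the NRF1 letters, 79 bases before the start, and 1 to the ERRA letters after it. The Sdha window holds 3 matches to NRF1, at 98, 55 and 10 bases before the start, and the Sdhb window holds no match to any of the 3 motifs in these letters. NRF1 and the estrogen-related receptor are known activators of respiratory chain genes. Over the 66 members with a window, matched by gene identifier or symbol, 20 held the NRF1 letters, or 30.3%, whereas 7.03% of the 27025 genes in the table did. Those 27025 genes were not limited to the 13199 tested here, so the members are set beside an unlike group. The ERRA letters were in 2 of 66 members and 0.466% of all genes, and the YY1 letters in 7 of 66 members and 1.64% of all genes. Among matched members NRF1 letters were found in 6 of 11 that fell, 3 of 9 that rose and 11 of 46 that were not called. A match is a run of letters, not a shown binding site.

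Among the rising genes with windows, Ndufa11 of complex I and Atp5k of complex V each hold the NRF1 letters, and are shown to set beside the falling complex II genes. The other rising genes picked by the same rule on size and level, Ndufa1, Ndufa7 and Cox7a2l, hold no match to any of the 3 motifs in their windows, which are not printed. In both, the letters overlap themselves on the opposite strand, so 2 matches share 10 capital bases. Ndufa11 is at chr17:56717512-56717811, plus strand and Atp5k at chr5:108434350-108434649, minus strand, both in GRCm38.p6.
Ndufa11: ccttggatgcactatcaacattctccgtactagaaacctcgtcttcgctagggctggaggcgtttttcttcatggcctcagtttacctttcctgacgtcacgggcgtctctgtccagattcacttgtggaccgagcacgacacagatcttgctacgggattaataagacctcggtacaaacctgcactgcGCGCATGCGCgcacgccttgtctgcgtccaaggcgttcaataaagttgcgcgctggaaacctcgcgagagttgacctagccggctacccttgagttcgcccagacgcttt
Atp5k: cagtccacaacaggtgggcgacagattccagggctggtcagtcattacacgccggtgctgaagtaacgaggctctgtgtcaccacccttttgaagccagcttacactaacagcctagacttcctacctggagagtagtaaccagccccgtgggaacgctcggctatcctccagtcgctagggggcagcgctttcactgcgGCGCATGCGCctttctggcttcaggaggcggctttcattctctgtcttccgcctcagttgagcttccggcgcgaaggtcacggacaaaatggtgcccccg

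Complex III split, with 3 of 8 members lower (37.5%) and 1 higher (12.5%), and a median log2 fold change of -0.19. Among all tested genes 28.3% fell and 29.3% rose. Uqcrfs1 (ENSMUSG00000038462, chromosome 13, 30724291 to 30729345, minus strand), the Rieske iron-sulfur protein that passes electrons on from coenzyme Q, had 159, 148 and 153 CPM in the TDP43-NLS libraries, against 191, 185 and 187 CPM in the GFP libraries. The groups were apart, with a log2 fold change of -0.29 (standard error 0.04, edgeR adjusted p = 5.65e-05). Uqcrc1 (ENSMUSG00000025651, chromosome 9, 108765701 to 108778691, plus strand), a core protein of the matrix side, had 341, 328 and 330.0 CPM in the TDP43-NLS libraries, against 394, 405 and 394 CPM in the GFP libraries, again with no overlap. Its log2 fold change was -0.26 (standard error 0.04, edgeR adjusted p = 6.70e-05), and GFP replicate 2 was here the highest GFP library. Uqcrc2, the partner core protein, had 178, 166 and 172 CPM with TDP43-NLS, against 176, 152 and 171 CPM with GFP, a log2 fold change of 0.05 that did not pass (edgeR adjusted p = 0.453). Uqcrb, a small subunit near the coenzyme Q site, had 29.9, 32.5 and 33.6 CPM with TDP43-NLS, against 41.7, 33.8 and 38.8 CPM with GFP. It fell by 0.25 on the log2 scale (edgeR adjusted p = 0.0146). The Uqcrb call was lost without TDP43-NLS replicate 1 (-0.20, edgeR adjusted p = 0.0878) or GFP replicate 1 (-0.18, edgeR adjusted p = 0.0709).

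Uqcrq (ENSMUSG00000044894, chromosome 11, 53318749 to 53321658, minus strand), a small subunit of the membrane part, rose, with 155, 163 and 159.8 CPM in the TDP43-NLS libraries, against 114, 79.8 and 124 CPM in the GFP libraries. All TDP43-NLS libraries exceeded all GFP libraries, and the log2 fold change was 0.59 ± 0.11 (standard error, edgeR adjusted p = 5.60e-04). Part of the size rests on GFP replicate 2, the lowest library, without which the log2 fold change was 0.42 (edgeR adjusted p = 1.30e-10). Without that library 5 of 8 complex III genes fell (62.5%) and 1 rose (12.5%), where 30.1% of all tested genes fell and 31.3% rose.

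Complex I, the NADH dehydrogenase, had 4 of 37 tested members higher (10.8%) and 3 lower (8.11%), with a median log2 fold change of -0.01. Among all tested genes 29.3% rose and 28.3% fell. Among the 7 core subunits encoded in the nucleus, which carry the flavin and the iron-sulfur clusters, 1 rose and 1 fell. Ndufs1 (ENSMUSG00000025968, chromosome 1, 63182755 to 63215992, minus strand), the core iron-sulfur subunit of the NADH-oxidising module, had 161, 164 and 157 CPM in the TDP43-NLS libraries, against 196, 189.8 and 200.4 CPM in the GFP libraries. Every TDP43-NLS library was below every GFP library, a log2 fold change of -0.28 (standard error 0.04, edgeR adjusted p = 6.34e-05). Ndufv1 (ENSMUSG00000037916, chromosome 19, 4057384 to 4062806, minus strand), which binds NADH and the flavin in the same module, went the other way with 138, 136 and 133 CPM in the TDP43-NLS libraries, against 122, 106 and 121 CPM in the GFP libraries. It rose by 0.22 on the log2 scale (standard error 0.05, edgeR adjusted p = 0.00347), and by 0.16 without GFP replicate 2.

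Of the 29 tested accessory subunits of complex I, Ndufa4 left out, 3 rose (10.3%) and 2 fell (6.90%). Both shares are below the 29.3% and 28.3% of all tested genes. Ndufa1, a small membrane subunit needed for assembly of the complex, had 33.6, 38.3 and 36.3 CPM in the TDP43-NLS libraries, against 31.4, 19.1 and 30.4 CPM in the GFP libraries. The groups did not overlap, and the log2 fold change of 0.42 (standard error 0.14, edgeR adjusted p = 0.0167) was 0.23 without GFP replicate 2. The Ndufa1 call was lost without TDP43-NLS replicate 2 (0.38, edgeR adjusted p = 0.0759) or 3 (0.43, edgeR adjusted p = 0.0587), and with DESeq2 (adjusted p = 0.122). Ndufa11, also a membrane subunit, had 13.02, 13.9 and 13.02 CPM with TDP43-NLS, against 11.01, 8.05 and 10.6 CPM with GFP. The rise was 0.43 on the log2 scale (edgeR adjusted p = 0.00449). Its row overlaps Vmac on the opposite strand, with 279 reads against 1159 for Ndufa11, and reads in the shared 256 bases cannot be assigned without strand. Ndufa7, in the matrix arm, had 65.6, 62.5 and 63.99 CPM with TDP43-NLS, against 55.9, 42.7 and 54.8 CPM with GFP, a rise of 0.33 (edgeR adjusted p = 0.00434). All 3 rises were smaller without GFP replicate 2, at 0.30 for Ndufa11 and 0.21 for Ndufa7, and each still passed.

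Ndufb4, in the membrane arm, had 32.8, 32.4 and 31.5 CPM with TDP43-NLS, against 43.5, 34.03 and 41.5 CPM with GFP. It fell by 0.30 on the log2 scale (edgeR adjusted p = 0.00640). Ndufb2, another subunit of that arm, had low counts, with 32, 44 and 28 reads with TDP43-NLS, against 52, 46 and 65 reads with GFP, and fell by 0.65 on the log2 scale (edgeR adjusted p = 0.0117). The call was lost without TDP43-NLS replicate 3 (-0.47, edgeR adjusted p = 0.0749) and without GFP replicate 3 (-0.54, edgeR adjusted p = 0.0550). Its span overlaps the antisense gene Braf, and its level per length, 0.365 FPKM in TDP43-NLS libraries and 0.586 FPKM in GFP libraries, is the lowest of the tested members. The sources used here do not say how reads matching several copies were counted, and their part in this low level was not tested. Without GFP replicate 2, 16 of 37 complex I genes fell (43.2%), where 30.1% of all tested genes did. Of these 16 genes 13 fell only then, among them Ndufb10, Ndufb8, Ndufs3 and Ndufs8, named after their values were seen. Ndufb10, for example, had 91.9, 103 and 103 CPM with TDP43-NLS, against 132, 86.3 and 133 CPM with GFP, where GFP replicates 1 and 3 were both above all TDP43-NLS libraries and GFP replicate 2 was below them.

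Complex IV, cytochrome c oxidase, had 4 of 14 tested members higher (28.6%) and 2 lower (14.3%). Among all tested genes 29.3% rose and 28.3% fell. Complex IV was the complex whose median log2 fold change, 0.09, lay above 0 with all 6 libraries. Without GFP replicate 2, 4 rose and 4 fell (28.6% each), where 31.3% of all tested genes rose and 30.1% fell. The median of complex IV was then -0.03. Cox7a2l (ENSMUSG00000024248, chromosome 17, 83809347 to 83824759, minus strand), a protein related to the Cox7a subunits that joins complexes III and IV into supercomplexes, had 143, 139 and 152 CPM in the TDP43-NLS libraries, against 111, 104 and 112 CPM in the GFP libraries. The lowest TDP43-NLS library was above the highest GFP library, with 0.41 ± 0.05 as the log2 fold change (standard error, edgeR adjusted p = 1.02e-05). It was 0.37 without GFP replicate 2, so Cox7a2l was little affected by that library.

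Cox6a1 and Cox6a2, alternative forms of the same complex IV subunit, moved in opposite directions. Cox6a1, the isoform of most tissues, had 185, 182 and 189.8 CPM in the TDP43-NLS libraries, against 167, 137 and 167 CPM in the GFP libraries. It rose by 0.24 on the log2 scale (standard error 0.07, edgeR adjusted p = 0.00684), and by 0.15 without GFP replicate 2. Cox6a2, the heart and muscle isoform, had 3.78, 3.54 and 3.40 CPM in the TDP43-NLS libraries, against 5.60, 4.73 and 6.90 CPM in the GFP libraries. It was at a far lower level and fell by 0.69 (standard error 0.16, edgeR adjusted p = 0.00194). Cox7a1, also a heart and muscle isoform, had 30, 42 and 39 reads with TDP43-NLS, against 13, 12 and 20 reads with GFP. This was 2.21 ± 0.171 CPM in TDP43-NLS and 0.896 ± 0.221 CPM in GFP libraries (SD, n = 3 each), which gave 1.29 ± 0.22 as the log2 fold change (standard error, edgeR adjusted p = 2.50e-04), the largest rise among the members but at a level of a few CPM. Cox7a2, the isoform of most tissues, had 101, 109 and 123 CPM with TDP43-NLS, against 141, 79.6 and 137 CPM with GFP, with overlapping groups and a log2 fold change of -0.10 that did not pass (edgeR adjusted p = 0.612). GFP replicate 2 was the lowest of the 6 libraries, and without it Cox7a2 fell by 0.32 (edgeR adjusted p = 1.69e-06). On the FPKM scale Cox7a1 averaged 4.07 FPKM in TDP43-NLS libraries and 1.69 FPKM in GFP libraries, and Cox7a2 116 FPKM in TDP43-NLS libraries and 128 FPKM in GFP libraries. Cox7a2 therefore supplied nearly all of the transcripts of this pair in both groups.

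Cox4i1, the regulatory subunit of most tissues, had 445, 402 and 414 CPM in the TDP43-NLS libraries, against 390.5, 298 and 396 CPM in the GFP libraries. Its log2 fold change of 0.22 passed narrowly (standard error 0.09, edgeR adjusted p = 0.0437) and did not pass with DESeq2 (adjusted p = 0.184), and it was 0.09 without GFP replicate 2. The Cox4i1 call was also lost without TDP43-NLS replicate 1 (0.18, edgeR adjusted p = 0.182), 2 (0.25, edgeR adjusted p = 0.0655) or 3 (0.24, edgeR adjusted p = 0.0952). Its row overlaps Emc8 on the opposite strand over 352 bases. Cox5a, a matrix-side subunit, had 65.9, 53.4 and 57.5 CPM with TDP43-NLS, against 74.6, 65.5 and 71.9 CPM with GFP. It fell by 0.26 on the log2 scale (edgeR adjusted p = 0.00758). Here TDP43-NLS replicate 1 overlapped the GFP libraries, and the call was lost without TDP43-NLS replicate 2 (-0.19, edgeR adjusted p = 0.0677) or 3 (-0.24, edgeR adjusted p = 0.0509). Cox5b, Cox6b1 and Cox8a were not called, with log2 fold changes of 0.02, 0.10 and -0.02. Without GFP replicate 2 they were at -0.05, -0.02 and -0.13, and Cox8a passed as a fall (edgeR adjusted p = 0.00466).

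**Figure D4:**
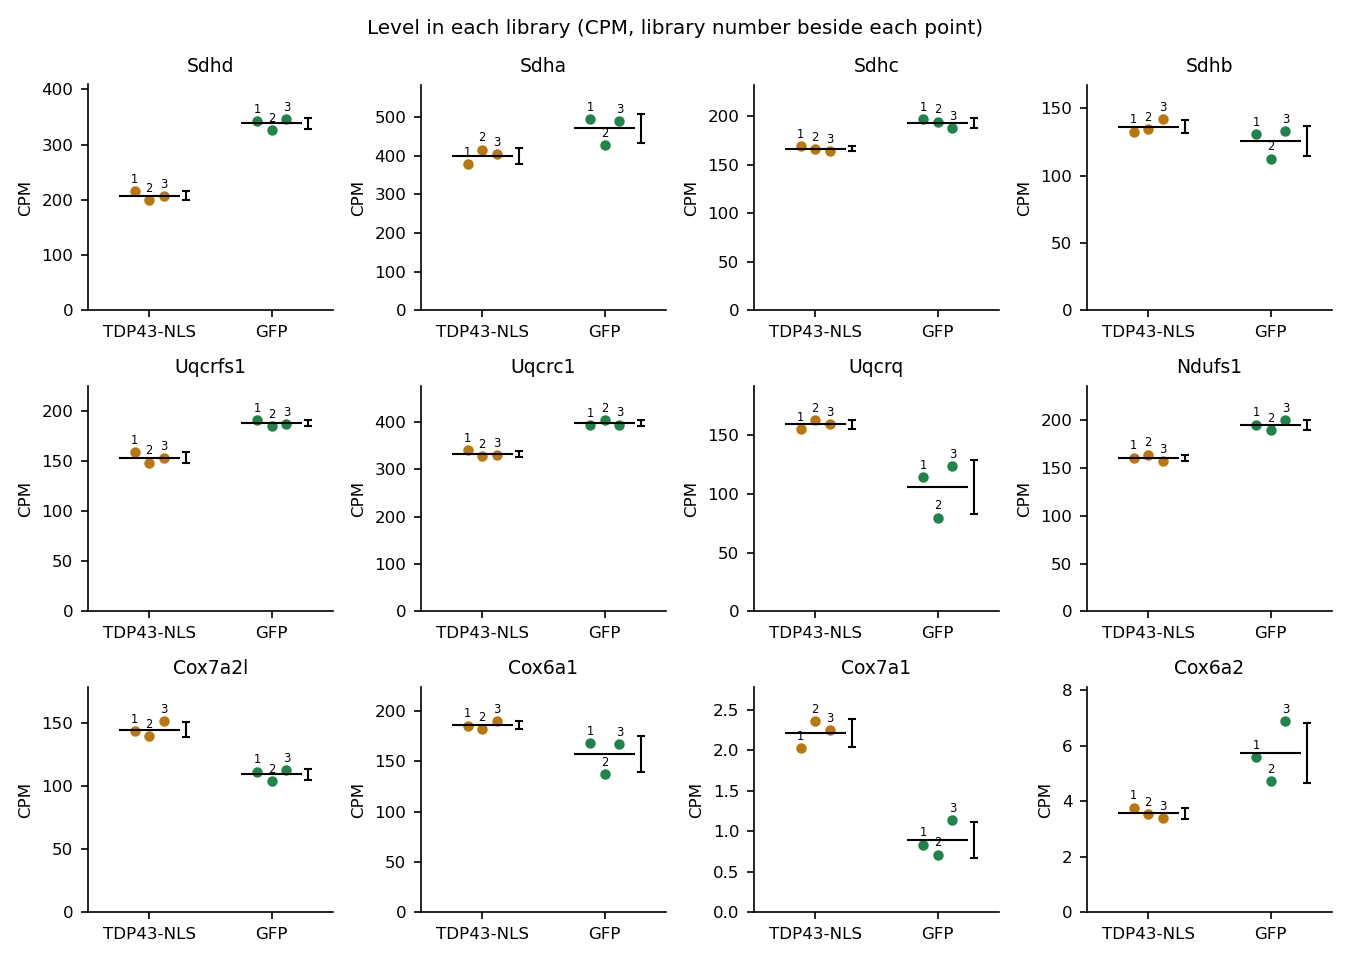
CPM of 12 members in each library (points, with the library number; horizontal lines, group means; bars, SD), TDP43-NLS on the left and GFP on the right of each panel, with axes from 0. Sdhd, Sdha, Sdhc, Uqcrfs1, Uqcrc1, Ndufs1 and Cox6a2 are lower in TDP43-NLS, Uqcrq, Cox7a2l, Cox6a1 and Cox7a1 are higher, and the groups overlap for Sdhb.

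Complex V, the ATP synthase, had 3 of 17 members higher (17.6%) and 5 lower (29.4%), all by less than 0.5 on the log2 scale. Among all tested genes 29.3% rose and 28.3% fell. The catalytic head of complex V is built of alpha and beta subunits, and these were the highest members on the FPKM scale together with Cox8a. Atp5a1, the alpha subunit, had 1110.4, 1091 and 1109 CPM in the TDP43-NLS libraries, against 1197, 1180.3 and 1228 CPM in the GFP libraries. The groups did not overlap, and the fall of 0.12 was small (standard error 0.04, edgeR adjusted p = 0.0117). Atp5b, the beta subunit, had 1944, 1907 and 1916 CPM in the TDP43-NLS libraries, against 1862, 1784 and 1869.5 CPM in the GFP libraries. It was higher in each TDP43-NLS library than in any GFP library, but the log2 fold change of 0.06 did not pass (standard error 0.04, edgeR adjusted p = 0.163). Atp5c1, the gamma subunit of the central stalk, had 241, 226 and 236 CPM with TDP43-NLS, against 263, 259 and 257 CPM with GFP. It fell by 0.15 on the log2 scale (edgeR adjusted p = 0.00694). Atp5d, the delta subunit beside it, had 194, 178 and 192 CPM with TDP43-NLS, against 171, 157 and 175 CPM with GFP. It rose by 0.16 on the log2 scale (edgeR adjusted p = 0.0154). Both stalk genes were called, in opposite directions. Leaving out TDP43-NLS replicate 2 ended the calls of Atp5a1 (-0.11, edgeR adjusted p = 0.0802) and Atp5c1 (-0.12, edgeR adjusted p = 0.0641). Atp5a1 was also lost without TDP43-NLS replicate 3 (-0.12, edgeR adjusted p = 0.0530) or GFP replicate 3 (-0.11, edgeR adjusted p = 0.0657), and Atp5d without TDP43-NLS replicate 1 (0.15, edgeR adjusted p = 0.0680) or 3 (0.16, edgeR adjusted p = 0.0599).

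In the membrane part of complex V, Atp5k, the e subunit, had 24.3, 24.4 and 25.8 CPM with TDP43-NLS, against 21.6, 14.97 and 20.4 CPM with GFP. It rose by 0.39 on the log2 scale (edgeR adjusted p = 0.00689). Atp5mpl, a small proteolipid subunit, had 83.6, 75.5 and 83.3 CPM with TDP43-NLS, against 74.1, 61.5 and 72.1 CPM with GFP. It rose by 0.22 on the log2 scale (edgeR adjusted p = 0.0135). Both stayed called without GFP replicate 2, at 0.25 and 0.14. Atp5l, the g subunit, had 21.2, 21.2 and 21.9 CPM with TDP43-NLS, against 28.8, 22.8 and 26.2 CPM with GFP. It fell by 0.27 on the log2 scale (edgeR adjusted p = 0.0117). Its TDP43-NLS libraries were all below its GFP libraries. Atp5g1, which encodes the proton-carrying c subunit, had 138, 154 and 153 CPM with TDP43-NLS, against 200.5, 148 and 191 CPM with GFP. It fell by 0.27 on the log2 scale (edgeR adjusted p = 0.0187). The genes Atp5g2 and Atp5g3, which encode the same mature c subunit, were not called, with log2 fold changes of -0.06 and -0.14, and both fell without GFP replicate 2, at -0.10 and -0.27. Atp5j, coupling factor F6 of the outer stalk, had 87.4, 86.1 and 96.4 CPM with TDP43-NLS, against 120.3, 88.9 and 113 CPM with GFP. It fell by 0.25 on the log2 scale (edgeR adjusted p = 0.0264). In Atp5g1, Atp5j and Uqcrb GFP replicate 2 lay close to or within the TDP43-NLS values, and the fall without it was larger, at -0.40, -0.37 and -0.33. Atp5j shares 701 bases with Gabpa on the opposite strand, a gene that itself fell by 0.37.

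The calls of these 4 genes, Atp5g1, Atp5j, Atp5l and Atp5mpl, depended on single libraries. Atp5g1 lost its call without TDP43-NLS replicate 1 or 3 or GFP replicate 1 or 3 (log2 fold changes of -0.19 to -0.29, edgeR adjusted p = 0.0567 to 0.122). Atp5j lost it without TDP43-NLS replicate 1 or 2 or GFP replicate 1 or 3 (-0.17 to -0.23, edgeR adjusted p = 0.0865 to 0.124). For Atp5l this held without TDP43-NLS replicate 2 (-0.26, edgeR adjusted p = 0.0540) or GFP replicate 1 (-0.20, edgeR adjusted p = 0.0587), and for Atp5mpl without TDP43-NLS replicate 1 (0.20, edgeR adjusted p = 0.0640) or 3 (0.21, edgeR adjusted p = 0.0615).

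Summed over members, complex II was the one complex in which the groups did not overlap. Its 4 genes together had 895, 917 and 917 CPM in the TDP43-NLS libraries, against 1165, 1060.1 and 1157 CPM in the GFP libraries, or 909.6 ± 12.6 CPM and 1127 ± 58.5 CPM (SD, n = 3 each). Complex III had 1119, 1083 and 1106 CPM in the TDP43-NLS libraries, against 1217, 1063 and 1213 CPM in the GFP libraries, and GFP replicate 2 lay below all TDP43-NLS libraries. Complex I had 2719.5, 2746 and 2739 CPM in the TDP43-NLS libraries, against 2947, 2395 and 2945 CPM in the GFP libraries, with the same pattern. Complex IV had 1935, 1816 and 1919 CPM in the TDP43-NLS libraries, against 1876, 1469 and 1877 CPM in the GFP libraries, and complex V 4949, 4839 and 4966 CPM in the TDP43-NLS libraries, against 5156, 4681 and 5155 CPM in the GFP libraries. All 82 members together took 1.14% of reads in TDP43-NLS and 1.19% in GFP libraries on average. With GFP replicates 1 and 3 alone, the GFP sums for complexes I, II, III and V and for all members lay above every TDP43-NLS library, and those for complex IV lay within the TDP43-NLS range.

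**Figure D5:**
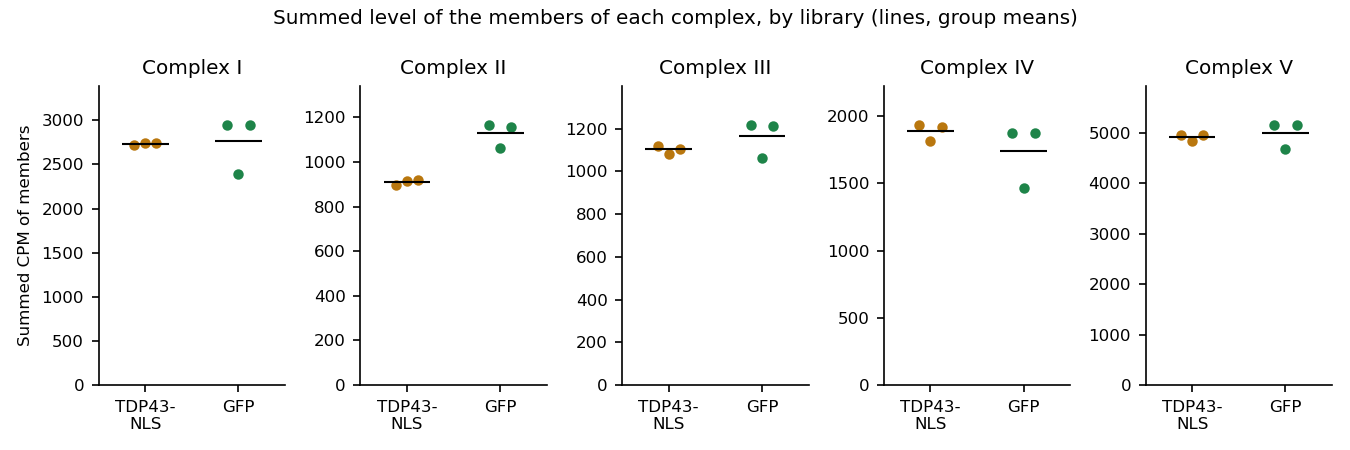
Summed CPM of the members of each complex in each library (points; lines, group means), TDP43-NLS left of GFP, axes from 0. The groups are apart in complex II, at 895 to 917 CPM in TDP43-NLS and 1060 to 1165 CPM in GFP libraries, and GFP replicate 2 is the low GFP point in every complex.

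The log2 fold changes of all tested genes, and of the members among them, differed between chromosomes. Over all tested genes the median log2 fold change was -0.31 on chromosome 9, -0.21 on chromosome 16 and 0.17 on chromosome 12. Of the 10 members on these chromosomes 6 fell and 1 rose, and on the other chromosomes 10 of 70 fell and 11 rose. Over all chromosomes 28.3% of tested genes fell and 29.3% rose, and the shares on these chromosomes alone are not given here. The members' medians were -0.26 on chromosome 9, -0.28 on chromosome 16 and 0.20 on chromosome 12, each of the same sign as the median over all tested genes there. Without those shares it cannot be said whether the counts are particular to the members. Sdhd, Uqcrc1, Cox5a and Atp5l, all lower, are on chromosome 9, as is Cox7a2, and Ndufb4 and Atp5j, also lower, are on chromosome 16 with Atp5o. Relative to the median of chromosome 9, Sdhd was at -0.39, whereas Uqcrc1, Cox5a and Atp5l were at 0.06, 0.05 and 0.04. The falls of Sdha, Sdhc, Ndufs1 and Uqcrfs1 are on chromosomes 13 and 1, where all genes had medians of -0.12 and -0.07. Atp5mpl is on chromosome 12 and was at 0.05 relative to its median. The part that chromosome position plays in the calls was not tested.

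Gene length differed between members that rose and fell. The median length was 1347.5 bases in the 12 that rose and 3132.5 in the 16 that fell, with 1578 over the tested members and 4016 over all tested genes. Across the 80 members the log2 fold change had a Spearman's rho of -0.31 with length, a description over genes that share the same 6 libraries. Library offsets adjusted for length gave 13 rises and 17 falls, among them all 28 called before. These offsets follow the trend with length over all tested genes. Under 1000 bases GFP replicate 2 was at -0.16 over all tested genes but at -0.45 in members. The offsets therefore cannot remove the members' own deviation, and keeping the calls does not show what part length plays.

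Genes that assemble the complexes or work beside them are given for comparison from named lists. These counts stand beside 29.3% of all tested genes that rose and 28.3% that fell. Of 17 complex I assembly factors 3 rose and 7 fell, with a median log2 fold change of -0.21. Ecsit, on chromosome 9, averaged 14.7 ± 0.363 CPM in TDP43-NLS and 26.1 ± 1.33 CPM in GFP libraries (SD, n = 3 each, log2 fold change -0.82), Foxred1, also on chromosome 9, fell by 0.57, and Ndufaf7, a methyltransferase, rose by 0.57. The ATP synthase assembly list had 4 of 5 lower, led by Atpaf1, the chaperone of the beta subunit, at -0.36. Of 6 complex III assembly factors 4 fell, with Lyrm7, a matrix chaperone of Uqcrfs1, at -0.41. Among 22 complex IV assembly factors 4 rose (18.2%) and 7 fell (31.8%), with the copper carrier Cox17 at 0.69 and the heme synthesis gene Cox10 at -0.48. The 4 complex II assembly factors had log2 fold changes of -0.37 to 0.24, and edgeR's quasi-likelihood test called 0 of them (0 also at an unadjusted p under 0.05 and by DESeq2).

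Of 7 other respiratory chain genes outside the name rule, 5 fell, among them Cyc1, the cytochrome c1 of complex III, with 292, 289 and 291 CPM with TDP43-NLS, against 368, 305 and 370.2 CPM with GFP and a log2 fold change of -0.26, and Etfdh, which passes electrons from fatty acid oxidation to coenzyme Q, at -0.30. In coenzyme Q synthesis 2 of 13 rose (15.4%) and 4 fell (30.8%), with Coq8b at 1.12 and Coq10a at -0.42. Of 17 pyruvate dehydrogenase and citric acid cycle genes 6 rose (35.3%) and 5 fell (29.4%), where 29.3% and 28.3% of all tested genes did. Idh3a, on chromosome 9, was at -0.50 and Idh2 at 0.26. Among 14 regulators of mitochondrial biogenesis 2 rose and 7 fell, with Pprc1 at -0.41 and Gabpa, a subunit of the factor known as NRF2 that activates respiratory chain genes, at -0.37. Esrrg, with 0.675, 0.225 and 0.403 CPM with TDP43-NLS, against 1.29, 1.54 and 1.31 CPM with GFP, was at -1.70. Esrra, at a far higher level, averaged 61.5 CPM in TDP43-NLS and 52.2 CPM in GFP libraries. It was 1 of the 2 that rose, by 0.24 (edgeR adjusted p = 0.00316). Nrf1 fell by 0.21 (edgeR adjusted p = 0.00294). Mitochondrially encoded subunits had 2 of 12 higher and 5 lower. The largest fall was in mt-Cytb, the cytochrome b of complex III, with 1725 ± 109 CPM in TDP43-NLS and 2815 ± 174 CPM in GFP libraries (log2 fold change -0.71). The most abundant, mt-Co1, had 8789 ± 683 CPM in TDP43-NLS and 7354 ± 319 CPM in GFP libraries and rose by 0.26 (edgeR adjusted p = 0.00150). Of 15 porin, import and chaperone genes of mitochondria 10 fell, with Tomm22, a receptor of the outer membrane, at -0.37. Against 28.3% of all tested genes, the share that fell was 41.2% for complex I assembly factors, 66.7% for the porin, import and chaperone list and 20% for the subunit genes themselves. Without GFP replicate 2 the falls were 12 of 17 for complex I assembly, 12 of 22 for complex IV assembly and 11 of 15 for the porin list, 5 of 5 for ATP synthase assembly, 4 of 6 for complex III assembly and 7 of 14 for the biogenesis regulators, beside the 37 of 80 subunit genes and 30.1% of all tested genes. In the same fit 5 of 7 other respiratory chain genes, 6 of 13 coenzyme Q genes and 5 of 12 mitochondrially encoded subunits fell. Of the 17 pyruvate dehydrogenase and citric acid cycle genes 6 fell and 5 rose, and edgeR's quasi-likelihood test called 0 of the 4 complex II assembly factors (0 also at an unadjusted p under 0.05).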

How the data were processed

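Poly(A) RNA from BV2 cells was sequenced with a kit described in the labels' protocols, in 3 TDP43-NLS and 3 GFP libraries. The authors deposited whole-number read counts per gene and FPKM values (reads scaled by gene length and library total); per the submitters' processing notes the tools were HISAT2 2.1.0, HTSeq 0.6.0 and Bowtie2 2.2.3 and the build GRCm39. Strand setting and the treatment of reads that match several places are not given in the sources used here, so overlapping and near-identical genes are uncertain. The gene lengths behind the deposited FPKM were recovered from counts and FPKM.

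The counts were filtered with filterByExpr (minimum count 10, total 15), scaled by TMM and tested over all 13199 genes with edgeR 4.0.16 (quasi-likelihood test, R 4.3.3) and Benjamini-Hochberg adjustment at 0.05, two-sided; "rose", "fell" and "called" mean past that threshold. CPM are reads scaled to a common library size with TMM factors. The script was tested on simulated counts, with the same dispersion for every gene and changes planted only in well-counted genes. Those counts held no deviating library such as GFP replicate 2, no shift with gene length and no planted change at low counts. DESeq2 1.42.0 served as an alternative. The members and lists were chosen with earlier results of these data known. Genes named were, per complex, up to 4 called members with the largest rise and fall at 1 CPM or more, catalytic and core subunits and paired isoforms whatever their result, and up to 3 called genes per list. A gene that this rule names is not reported here. Promoters were named for called members of at least 0.3 in absolute log2 fold change and 10 CPM; other complex II promoters were added after the data were seen. Same-numbered replicates did not deviate together (correlations -0.04 to 0.02), so the fit has no replicate block.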

Additional observations from a re-analysis of the deposited data

How the results depend on the processing

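The 12 rises and 16 falls were recomputed in 13 other fits; 16 of the 28 called members were called in all 13, 8 rising and 8 falling, and 12 were lost in at least one. DESeq2 size factors gave 12 and 16, TMM without chromosomes 9, 12 and 16 gave 11 and 17, DESeq2 gave 11 and 16, no filter 12 and 16, members of at least 10 CPM 11 and 14, and length-adjusted offsets 13 and 17, or 15 and 17 when each gene's offsets were centred alike in both groups, an alternative chosen after seeing the data. Without one library at a time the rises ranged from 8 to 18 and the falls from 11 to 37, the highest falls without GFP replicate 2. With the replicate block, although the numbers share only a number (1 of 6 samples correlated best with its own), there were 17 rises and 18 falls. In a stricter test that is not among these 13 fits, against a log2 fold change of 0.25, only 3 rises (Uqcrq, Cox7a1, Cox7a2l) and 3 falls (Ndufb2, Sdhd, Cox6a2) passed. Leaving out the members on chromosomes 9, 12 and 16 gave 11 rises and 10 falls of 70. No sign of a called gene was reversed. Cox7a1, Cox6a2 and Ndufb2 have few reads, and the p-values measure the spread of 3 libraries a group.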
